A study of Homo sapiens with 18 samples.

Results

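The genes examined here were 44 cytokine and chemokine genes, and the regions examined were the glucocorticoid receptor (GR) binding regions (GBR) near them. A GBR was assigned to a gene when its summit, the point of highest signal, lay within 50 kb of the gene's canonical transcription start site (TSS) in GENCODE 44. In this way 42 loci were found among the 9736 loci that the 6 peak lists held between them, and 24 of the 44 genes had at least 1. The GR ChIP-seq was done in U2OS-GRα cells, an established osteosarcoma line that had been stably transfected to express GRα. Before the GR agonist dexamethasone (dex, 100 nM) was added for 1 h, the cells spent 48 h with a pair of siRNAs, and every group received dex. The pairs were siNS/siNS, in which both siRNAs were non-specific, siHic5/siNS against the coregulator Hic-5, siCHD9/siNS and siBRM/siNS against the chromatin remodelers CHD9 and BRM, and siCHD9/siHic5 and siBRM/siHic5 against a remodeler and Hic-5 together. There were 12 ChIP libraries, 2 for each combination, and 6 input libraries.

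Each combination was represented by 1 list of peaks called on its pooled replicates. For a GBR called in one list and not in another, the lists therefore give no spread between replicates, and they allow no test between conditions. The study's own comparison of the replicate libraries was not used here. Most shares of the members' GBR are given with 95% Wilson intervals, which cover counting error only. The depth of the libraries could not be read from the lists, so a missing call means that no peak was listed, not that GR was absent. The siBRM/siHic5 list had the strictest floor, with a lowest −log10 q-value of 14.2, against 7.26 to 8.91 in the other 5 lists. Following the study's term, a siHic5/siNS GBR with no overlapping siNS/siNS peak is called blocked, and the remaining siHic5/siNS GBR are called shared. In its later sections the study defined blocked and non-blocked GBR with its comparison of the replicate libraries as well, so those classes are not the ones counted here.

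Cytokines and chemokines are the secreted proteins by which cells start and shape inflammation. Many of their genes are switched on by the transcription factors NF-kB and AP-1, and glucocorticoids are used in the clinic because they restrain that output. Liganded GR either binds DNA directly, at a palindromic glucocorticoid response element (GRE), or is held at other factors' sites, and the remodelers CHD9 and BRM move or evict nucleosomes at such sites.

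To show what GR binding looked like in sequence, the GRE matches nearest to the summit are printed for the fully described GBR that held one in the 200 bp around the summit. Capitals mark the GRE match, which allows 1 mismatch at the 10 defined positions of the consensus and was searched on both strands. Sequences and positions are from GRCh38, on the plus strand. The first set lies in GBR that were called in all 6 lists.
LIF, 44.4 kb upstream (chr22:30291206-30291266, plus strand): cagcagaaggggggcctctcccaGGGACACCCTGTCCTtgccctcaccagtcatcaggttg
CCL20, 4.57 kb downstream (chr2:227818377-227818437, plus strand): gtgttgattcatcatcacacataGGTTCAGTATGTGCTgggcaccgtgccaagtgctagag
CSF1, 17.3 kb downstream (chr1:109928111-109928171, plus strand): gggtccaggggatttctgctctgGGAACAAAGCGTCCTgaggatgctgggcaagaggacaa
The LIF match had 0 mismatches and its centre lay 59 bp from the summit. The CCL20 match, with 1 mismatch, was centred exactly on the summit. The CSF1 match also had 1 mismatch.

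The second set lies in GBR that had no siNS/siNS peak. The CSF3 sequence is shortened because it falls in an untranslated region.
CXCL5, 7.58 kb upstream (chr4:74006263-74006323, plus strand): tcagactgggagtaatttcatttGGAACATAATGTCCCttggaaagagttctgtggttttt
CSF3, 216 bp downstream (chr17:40015648-40015676, plus strand): gtggtagGGAACAGCATGTCTCctgagcc
CX3CL1, 36.8 kb downstream (chr16:57409244-57409304, plus strand): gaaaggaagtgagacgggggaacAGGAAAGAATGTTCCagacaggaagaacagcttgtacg
CXCL11, 42.4 kb upstream (chr4:76078416-76078476, plus strand): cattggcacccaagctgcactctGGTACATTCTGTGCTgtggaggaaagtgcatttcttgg
IL10, 23.6 kb downstream (chr1:206748871-206748931, plus strand): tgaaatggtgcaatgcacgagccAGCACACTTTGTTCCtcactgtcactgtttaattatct
IL1RN, 31.7 kb downstream (chr2:113159278-113159338, plus strand): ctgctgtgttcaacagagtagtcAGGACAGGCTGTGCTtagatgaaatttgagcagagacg
The matches of CXCL5, CXCL11, IL10 and IL1RN had 0 mismatches, while those of CSF3 and CX3CL1 had 1. Their centres lay between 3 bp (CXCL11) and 39 bp (CXCL5) from the summit. A perfect match was thus printed for both a GBR called in all 6 lists and GBR called in Hic-5 depleted cells only. Over the whole siHic5/siNS list, 8.64% of blocked and 18.7% of shared GBR held a perfect match in the 1-kb window around the summit.

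The last sequence is the promoter of CXCL8, the neutrophil chemokine, shown because a blocked GBR had its summit 10 bp upstream of the CXCL8 TSS. The run ends where the first annotated CXCL8 transcript begins, and it was read from the RefSeq promoter table (GRCh38.p14). Capitals mark an AP-1 match (TGACTCA, first base 137 bases before the RefSeq start) and a kB element (GGAATTTCC, first base 91 bases before it), the kind of sequence that the NF-kB subunits bind.
CXCL8 promoter (chr4:73740319-73740518, plus strand): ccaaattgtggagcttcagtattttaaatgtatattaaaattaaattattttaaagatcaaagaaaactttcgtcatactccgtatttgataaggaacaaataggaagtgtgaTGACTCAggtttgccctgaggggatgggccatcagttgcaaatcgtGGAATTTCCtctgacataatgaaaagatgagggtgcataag
AP-1 matches (TGACTCA or TGAGTCA, both strands) were present in 4.20% of 35116 RefSeq promoters, each read over the 250 bases before its start, and the kB element in 0.413%. The kB element was searched after this promoter had been read. No GRE match was found in the 1-kb window around the CXCL8 summit.

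Members with a GBR within 50 kb were more numerous in siHic5/siNS than in any other list. In siNS/siNS 6 of 44 members had a GBR (13.6%), against 9.46% of 20033 protein-coding genes. In siHic5/siNS 24 of 44 had one (54.5%), against 27.1% of protein-coding genes. Co-depletion of a remodeler gave 11 members with siCHD9/siHic5 (25%, against 8.99%) and also 11 with siBRM/siHic5 (25%, against 12.4%). With Hic-5 present, 7 members had a siCHD9/siNS GBR (15.9%, against 5.75%) and 4 a siBRM/siNS GBR (9.09%, against 5.23%). Members had the higher share in each of the 6 lists. These gene shares are given without intervals, and the differences were not tested. Several members are neighbours in gene clusters and share 1 GBR, so the members are not independent of each other.

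Counted as regions, the members had 12 of 2582 GBR in siNS/siNS (0.465%) and 40 of 9533 in siHic5/siNS (0.420%). With a remodeler and Hic-5 depleted they had 17 of 2451 in siCHD9/siHic5 (0.694%) and 20 of 3383 in siBRM/siHic5 (0.591%). With a remodeler alone depleted they had 13 of 1415 in siCHD9/siNS (0.919%) and 6 of 1278 in siBRM/siNS (0.469%). The members' share of a list was thus lowest in siHic5/siNS. LIF, which encodes leukaemia inhibitory factor of the interleukin 6 family, supplied 10 of the 40 siHic5/siNS GBR. Of all 20033 genes, 2 had as many siHic5/siNS GBR within 50 kb or more, LIF included. LIF also supplied 6 of the 12 siNS/siNS GBR. The main shares are therefore given again without the LIF GBR.

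**Figure D1:**
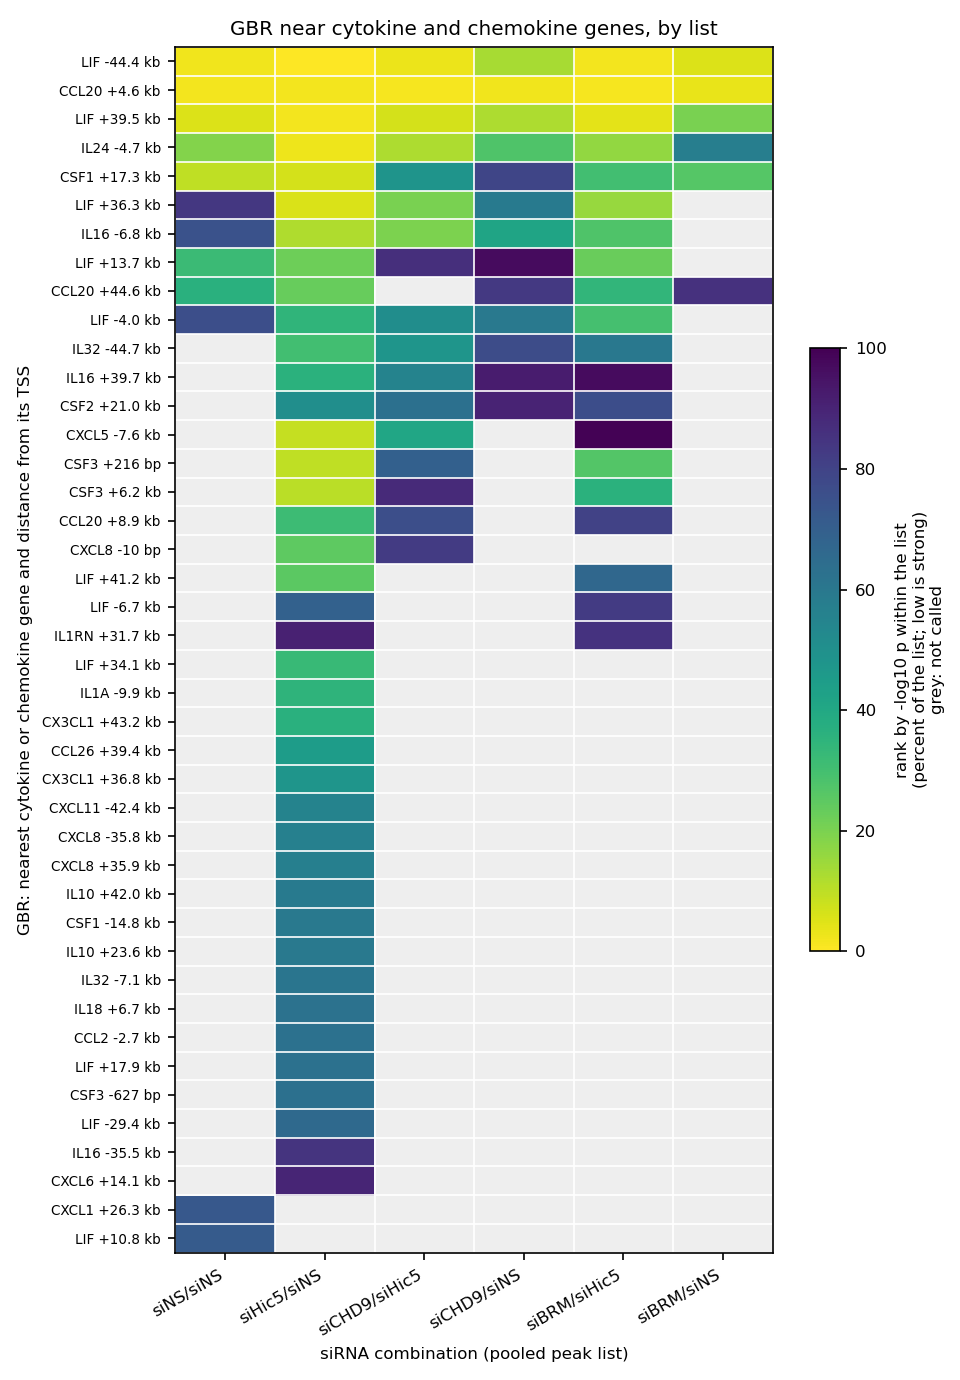
Call and strength of each GBR near a cytokine or chemokine gene. Rows are the 42 loci, named by the nearest member and the distance of the summit from its TSS, and columns are the 6 pooled peak lists. Colour gives the rank by −log10 p-value as a percent of the list, with low values for strong peaks, and grey marks no call. 5 loci were called in all 6 lists and 19 in siHic5/siNS only.

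Of the 40 siHic5/siNS GBR of the members, 30 were blocked, 75% (59.8 to 85.8), against 74.0% of all 9533. The blocked share near cytokine and chemokine genes was thus that of the whole list. Without the LIF GBR it was 25 of 30, 83.3% (66.4 to 92.7), and at LIF it was 5 of 10. CSF3, CXCL8, CX3CL1, IL10 and IL32 had only blocked GBR, 2 or 3 each. IL24 was the only one of the 24 members whose siHic5/siNS GBR were all shared.

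In the full lists, loss on co-depletion of a remodeler was less frequent among the members' GBR than over all siHic5/siNS GBR. With CHD9 co-depleted, 23 of 40 had no call, 57.5% (42.2 to 71.5), against 75.4% of all siHic5/siNS GBR. With BRM co-depleted, 20 of 40 had none, 50% (35.2 to 64.8), against 65.4%. Both lists lacked a call at 19 of 40, 47.5% (32.9 to 62.5), against 61.8%. The same 19 were called in no list but siHic5/siNS, against 58.7% of all. Conversely, 5 of the 40 were called in all 6 lists, 12.5% (5.46 to 26.1), against 9.25%. None of these differences was tested. Without the LIF GBR the siCHD9/siHic5 share was 60.0% (42.3 to 75.4) and the siBRM/siHic5 share 56.7% (39.2 to 72.6), and the upper bounds of both intervals reached the value of the whole list. Both lists then lacked a call at 16 of 30, 53.3% (36.1 to 69.8).

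Within the members, the loss fell on the blocked GBR. Of the 30 blocked GBR, 22 had no siCHD9/siHic5 call, 73.3% (55.6 to 85.8), against 90.6% of all blocked GBR, and 20 had no siBRM/siHic5 call, 66.7% (48.8 to 80.8), against 83.3%. Of the 10 shared GBR, 1 had no siCHD9/siHic5 call, 10.0% (1.79 to 40.4), against 32.3%. None of the 10 lacked a siBRM/siHic5 call, 0% (0 to 27.8), against 14.3%. With LIF left out, 17 of 25 blocked GBR had no call in each of the double depletion lists, and of 5 shared GBR 1 had no siCHD9/siHic5 call and 0 had no siBRM/siHic5 call. The only shared GBR without a siCHD9/siHic5 call lay 44.6 kb downstream of CCL20.

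With Hic-5 present, the members' GBR were few. Of the 12 siNS/siNS GBR, 2 had no siCHD9/siNS call, 16.7% (4.70 to 44.8), against 51.4% of all 2582 siNS/siNS GBR. In siBRM/siNS 6 of the 12 had none, 50% (25.4 to 74.6), against 52.2%. The 2 without a siCHD9/siNS call, near CXCL1 and LIF, had no siHic5/siNS call either, 16.7% (4.70 to 44.8) against 3.18%. Of the 13 siCHD9/siNS GBR, 3 had no siNS/siNS call, 23.1% (8.18 to 50.3), against 11.2%. Without the LIF GBR, 1 of 6 siNS/siNS GBR had no siCHD9/siNS call, 16.7% (3.01 to 56.4), an interval that holds the 51.4% of the list, and 2 of 6 had no siBRM/siNS call. The 3 siCHD9/siNS GBR without a siNS/siNS call, near IL32, IL16 and CSF2, were called in siHic5/siNS, siCHD9/siHic5 and siBRM/siHic5 as well.

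**Figure D2:**
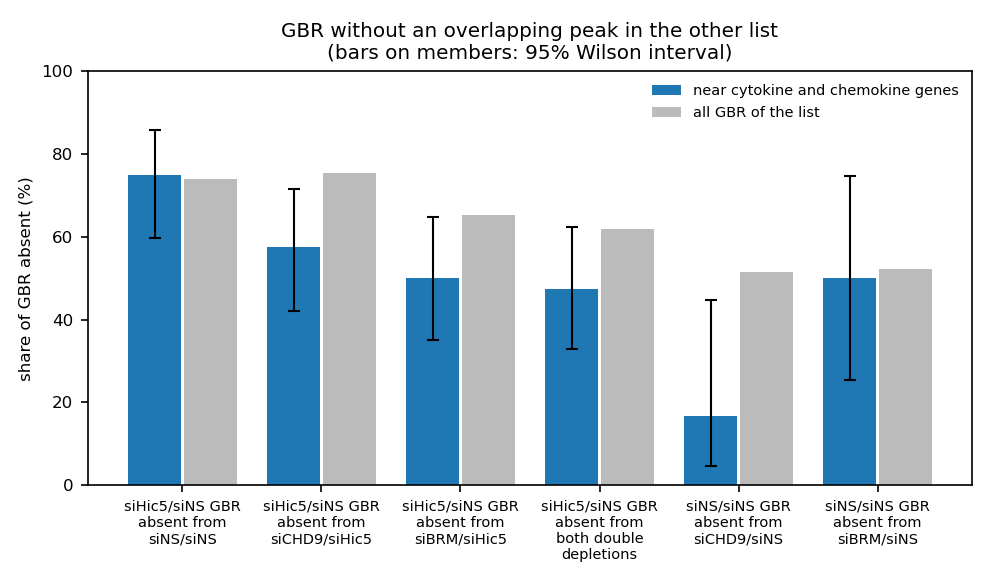
Share of GBR, in percent, that had no overlapping peak in the second list named. Blue bars are the GBR near cytokine and chemokine genes with 95% Wilson intervals, grey bars all GBR of the first list. The members' share was 75% against 74.0% for blocking by Hic-5, and 16.7% against 51.4% for siNS/siNS GBR absent from siCHD9/siNS.

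Blocked and shared GBR of the members differed in strength, given here as the −log10 p-value that the peak caller assigned in the siHic5/siNS list. The 30 blocked GBR ranged from 13.0 to 74.4, with a median of 20.3, against a median of 18.7 for all blocked GBR. The 10 shared GBR ranged from 29.6 to 285, with a median of 91.6, against 54.7 for all shared GBR. The ranges overlapped between 29.6 and 74.4. The 12 siNS/siNS GBR had a median of 27.9 in their own list, against 21.2 for all siNS/siNS GBR. How far strength accounts for the calls in the other lists was not tested.

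**Figure D3:**
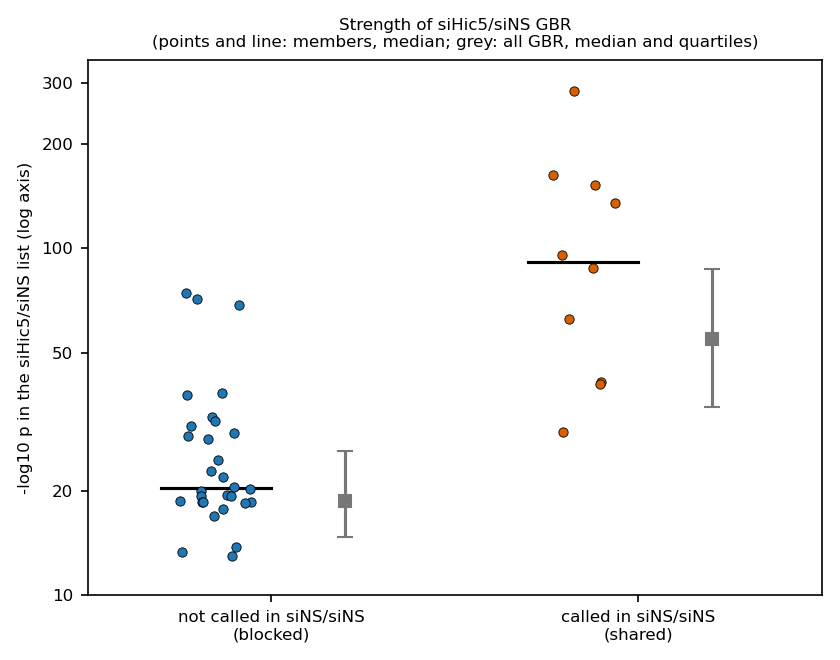
Strength of siHic5/siNS GBR as −log10 p-value on a log axis. Points are the members' GBR and black lines their medians, and grey squares with bars are the median and quartiles of all GBR. Medians of the members were 20.3 for blocked and 91.6 for shared GBR.

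The summits lay mostly away from promoters. Only 3 of the 40 siHic5/siNS GBR had their summit within 1 kb of a member TSS, at CSF3 and CXCL8, and all 3 were blocked. Of the 12 between 1 and 10 kb, 8 were blocked, and of the 25 between 10 and 50 kb, 19 were. Over all siHic5/siNS GBR 74.0% were blocked. The distance classes were not counted for the whole list, so they are no trait of these genes. The TSS of a member was the nearest of all protein-coding TSS for 27 of the 40. For the other 13 the TSS of another gene was nearer, CCL17 for both CX3CL1 GBR and HIP1 for that of CCL26 among them.

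**Figure D4:**
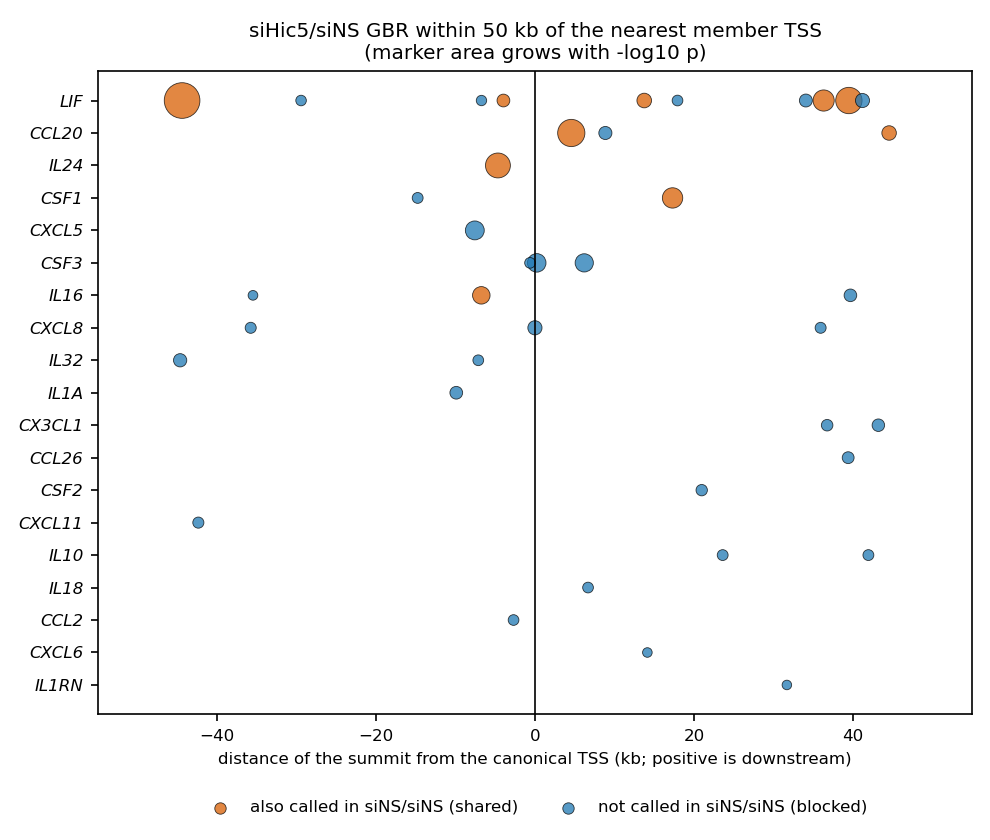
Position of the 40 siHic5/siNS GBR relative to the canonical TSS of the nearest member, in kb with downstream positive. Marker area grows with the −log10 p-value in siHic5/siNS, orange marks shared and blue blocked GBR. LIF had 10 GBR, 5 of them shared, and CSF3 and CXCL8 had blocked GBR only, 3 each.

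Among the interleukin 6 family, LIF had the strongest GBR of any member. Its GBR 44.4 kb upstream lay on chr22:30290580-30291762, in an intron of ENSG00000248751 and 1.67 kb from the TSS of CASTOR1, a sensor of arginine for mTORC1, so that LIF was not the nearest gene. The −log10 p-value was 133 in siNS/siNS, 285 in siHic5/siNS, 116 in siCHD9/siHic5, 44.9 in siCHD9/siNS, 252 in siBRM/siHic5 and 68.4 in siBRM/siNS. These values depend on the depth of a list and are not compared between lists, but within its list the peak ranked 51, 16, 75, 183, 57 and 69. It was within the top 0.168% of siHic5/siNS and within the top 12.9% of every list. The perfect GRE printed first above lies in this GBR.

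A second LIF GBR called in all 6 lists lay 39.5 kb downstream of the TSS, on chr22:30206655-30207697, between genes. It ranked 140 in siNS/siNS, 176 in siHic5/siNS, 158 in siCHD9/siHic5, 176 in siCHD9/siNS, 138 in siBRM/siHic5 and 259 in siBRM/siNS, with a −log10 p-value of 152 in siHic5/siNS. It held an AP-1 match and no GRE match in its 1-kb window. The LIF GBR nearest to the TSS was 3.98 kb upstream, with a −log10 p-value of 15.8 in siNS/siNS, 29.6 in siHic5/siNS, 20.6 in siCHD9/siHic5, 16.8 in siCHD9/siNS and 49.1 in siBRM/siHic5. It had no siBRM/siNS call. The GBR 36.3 kb downstream and 13.7 kb downstream had the same pattern, with siHic5/siNS values of 95.5 and 41.3. A weak LIF peak 10.8 kb downstream, with a −log10 p-value of 16.3, was called in siNS/siNS only. Of the 5 blocked LIF GBR, those 41.2 kb downstream and 6.74 kb upstream were also called in siBRM/siHic5, with values there of 25.8 and 21.4, and the other 3 were called in siHic5/siNS only. IL6 and IL11, the family's founding member and a platelet-promoting relative, had no GBR in any list.

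The colony-stimulating factors each had a GBR, with different patterns. CSF3 encodes G-CSF, which drives neutrophil production, and its 3 GBR were all blocked. The GBR 216 bp downstream of the TSS, on chr17:40015389-40015942, had its summit in an untranslated region of CSF3. Its −log10 p-value was 71.5 in siHic5/siNS, where it ranked 908, 15.7 in siCHD9/siHic5 and 53.2 in siBRM/siHic5, and it was not called in the 3 lists with Hic-5 present. The GBR 6.20 kb downstream, in an intron of the Mediator gene MED24, had the same pattern, with 68.7, 12.8 and 42.4. The GBR 627 bp upstream was called in siHic5/siNS only, at 18.4. It held an NF-kB match 17.5 bp from its summit and an AP-1 match, and no GRE match.

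CSF1 encodes M-CSF, the macrophage growth factor. Its GBR 17.3 kb downstream, in an intron of CSF1 on chr1:109927895-109928456, was called in all 6 lists. The −log10 p-value was 61.4 in siNS/siNS, 87.6 in siHic5/siNS, 21.2 in siCHD9/siHic5, 13.5 in siCHD9/siNS, 48.2 in siBRM/siHic5 and 28.0 in siBRM/siNS. Its rank was 247 in siNS/siNS and 338 in siBRM/siNS but 1119 of 1415 in siCHD9/siNS, so that it stood among the weaker peaks there. The CSF1 GBR nearest to the TSS, 14.8 kb upstream in an exon of the lncRNA ENSG00000261055, was called in siHic5/siNS only, at 19.3. CSF2 encodes GM-CSF, and its single GBR lay 21.0 kb downstream, between genes, on chr5:132094381-132095065. It was called in siHic5/siNS at 21.9, in siCHD9/siHic5 at 16.9, in siCHD9/siNS at 12.6 and in siBRM/siHic5 at 23, but not in siNS/siNS or siBRM/siNS. An NF-kB match lay 1.5 bp from its summit.

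CCL20, a chemokine that attracts CCR6-positive lymphocytes and dendritic cells, had the strongest GBR of the chemokine genes. The GBR 4.57 kb downstream of the TSS, between genes on chr2:227817950-227819253, was called in all 6 lists. The −log10 p-value was 134 in siNS/siNS, 163 in siHic5/siNS, 158 in siCHD9/siHic5, 106 in siCHD9/siNS, 272 in siBRM/siHic5 and 85.2 in siBRM/siNS. It ranked 50, 150, 34, 32, 47 and 40, within the top 3.13% of every list. The GBR 44.6 kb downstream, nearer to DAW1, was called in every list but siCHD9/siHic5, with 40.5 in siHic5/siNS. The blocked GBR 8.86 kb downstream was called in siHic5/siNS at 31.7, in siCHD9/siHic5 at 14.5 and in siBRM/siHic5 at 21.8. Both CCL20 GBR other than the strongest held a GRE match.

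Among the neutrophil chemokine genes of the CXCL cluster on chromosome 4, CXCL8 had 3 siHic5/siNS GBR. CXCL5 and CXCL3 shared 1, and CXCL6 and CXCL1 shared another. All of these GBR were blocked, against 74.0% of all siHic5/siNS GBR, but they are too few to set against that share. The strongest, 7.58 kb upstream of CXCL5 and 32.4 kb from CXCL3, lay on chr4:74005436-74006521 in an intron of the lncRNA ENSG00000287037. Its −log10 p-value was 74.4 in siHic5/siNS, the highest of any blocked GBR of the members, 24.3 in siCHD9/siHic5 and 18 in siBRM/siHic5. It ranked 846 of 9533 in siHic5/siNS but 3359 of 3383 in siBRM/siHic5, at the floor of that list.

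The CXCL8 promoter GBR, on chr4:73740331-73740798, was the only member locus called in siHic5/siNS and siCHD9/siHic5 and in no other list. Its −log10 p-value was 38.3 in siHic5/siNS, where it ranked 2369, and 13.5 in siCHD9/siHic5, where it ranked 2027 of 2451. The lowest −log10 p-value in the siBRM/siHic5 list was 17.8, so a peak at 13.5 would not have been listed there. Distal CXCL8 GBR 35.8 kb upstream and 35.9 kb downstream were called in siHic5/siNS only, at 20.2 and 19.9. A GBR 14.1 kb downstream of CXCL6 and 18.6 kb from CXCL1, nearer to PF4V1, was weak at 13.3 and called in siHic5/siNS only. CXCL1 had in addition a GBR 26.3 kb downstream that was called in siNS/siNS only, at 16.1. CXCL2, in the same cluster, had none.

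Several chemokine genes for other leukocytes had GBR in siHic5/siNS only, a pattern that 58.7% of all siHic5/siNS GBR had. The monocyte chemokine gene CCL2 had a GBR 2.70 kb upstream, on chr17:34252349-34252858, with a −log10 p-value of 18.5, and the same peak was the single GBR of its neighbours CCL7, 17.6 kb away, and CCL11, 33.2 kb away. It held NF-kB matches, the nearest 66.5 bp from the summit, a kB element at 96 bp and no GRE match. CX3CL1, the membrane-bound fractalkine, had GBR 36.8 and 43.2 kb downstream, at 22.8 and 28.2, both in an intron of another chemokine gene, CCL17. CCL26, an eosinophil chemokine gene, had 1 GBR at 24.5, 39.4 kb downstream in an intron of HIP1. CXCL11, an interferon-induced T cell chemokine gene, had 1 at 20.5, 42.4 kb upstream in an intron of ART3. None of these had a peak in either list with a remodeler co-depleted.

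The interleukin 1 family had calls mainly in siHic5/siNS. IL1A and IL1B, which encode the inflammatory interleukins 1α and 1β, shared a GBR 9.91 kb upstream of IL1A and 42.4 kb from IL1B, on chr2:112794180-112794641, called in siHic5/siNS only at 29.4. IL1RN, which encodes the receptor antagonist, had a GBR 31.7 kb downstream in an intron of PSD4, at 13.0 in siHic5/siNS and 20.8 in siBRM/siHic5. It was the weakest of the members' siHic5/siNS GBR, with rank 8671, and held the perfect GRE printed above. IL18 had a GBR 6.67 kb downstream, in an intron of IL18, called in siHic5/siNS only at 18.6. IL33 had no GBR.

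The interleukin 10 family genes IL10 and IL24 lie in 1 cluster on chromosome 1 and differed in pattern. IL24 had a GBR 4.67 kb upstream, between genes on chr1:206892389-206893207, in all 6 lists. The −log10 p-value was 41.6 in siNS/siNS, 135 in siHic5/siNS, 57.5 in siCHD9/siHic5, 28.2 in siCHD9/siNS, 75.7 in siBRM/siHic5 and 16.8 in siBRM/siNS. It was within the top 2.60% of siHic5/siNS but at 57.1% of siBRM/siNS, the weakest of its 6 places. IL10, which encodes an anti-inflammatory cytokine, had GBR 23.6 and 42.0 kb downstream, at 19.3 and 19.4, called in siHic5/siNS only. The second lay in an intron of the kinase gene MAPKAPK2, and IL19 was the nearest TSS for both.

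IL16 and IL32 had GBR of mixed pattern. IL16, which encodes a CD4 ligand, had a GBR 6.76 kb upstream of its canonical TSS, in an intron of a longer IL16 transcript on chr15:81189661-81190582. The −log10 p-value was 16.0 in siNS/siNS, 62.7 in siHic5/siNS, 41.3 in siCHD9/siHic5, 21.7 in siCHD9/siNS and 52 in siBRM/siHic5, and siBRM/siNS had no call. Its GBR 39.7 kb downstream was blocked, at 28.8, but was called again in siCHD9/siHic5 at 18.9, in siCHD9/siNS at 12.3 and in siBRM/siHic5 at 18.5. IL32, a cytokine gene of lymphocytes and epithelia, had its nearest GBR 7.14 kb upstream, in a coding exon of MMP25, in siHic5/siNS only at 18.7. Its GBR 44.7 kb upstream was 0.606 kb from the TSS of the TWEAK receptor gene TNFRSF12A and was called at 32.7 in siHic5/siNS, 21.5 in siCHD9/siHic5, 14.1 in siCHD9/siNS and 27.9 in siBRM/siHic5. The remaining IL16 GBR, 35.5 kb upstream, was in siHic5/siNS only at 13.8.

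In 20 members no list had a GBR within 50 kb. These were the chemokine genes CCL3, CCL4, CCL5, CCL8, CXCL2, CXCL9, CXCL10, CXCL12, CXCL14 and CXCL16, the tumor necrosis factor locus genes TNF, LTA and LTB, the interleukin genes IL6, IL11, IL12A, IL15 and IL33, the interferon gene IFNB1 and the epithelial alarmin gene TSLP. Whether these genes are expressed in U2OS-GRα cells was not measured.

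Sequence motifs were counted in the 1-kb window around each of the 40 siHic5/siNS summits. The motifs, like the genes, were chosen with earlier results of these data known. A GRE match was found in 18, 45.0% (30.7 to 60.2), against 53.6% of all siHic5/siNS GBR. Its median distance from the summit was 17.5 bp, and in 16 of the 18 it was within 100 bp. Of the 30 blocked GBR 12 held a GRE match, against 48.9% of all blocked GBR. Of the 10 shared GBR 6 held one, against 66.9% of all shared GBR. AP-1 matches were present in 19, 47.5% (32.9 to 62.5), against 37.1%. An ETS match (CAGGAA or CCGGAA, then A or G, then C or T, on either strand) was present in 16, 40.0% (26.3 to 55.4), against 37.9%. The intervals of these 3 motifs held the values of the whole list. For all 3 the order of members and list turned under another search, since a GRE without mismatch was in 17.5% of the members' GBR against 11.2% of the list, and in the 200-bp window AP-1 was in 17.5% against 19.5% and ETS in 10.0% against 13.9%. With the LIF GBR left out, ETS matches were in 33.3% (19.2 to 51.2), below the list.

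For NF-kB the pattern searched was GGGRNNYYCC on either strand, with R for A or G, Y for C or T and N for any base. NF-kB matches were present in 17 of the 40, 42.5% (28.5 to 57.8), against 24.1% of all siHic5/siNS GBR. In the 200 bp around the summit they were present in 7, 17.5% (8.75 to 31.9), against 7.32%. Without the LIF GBR they were present in 11 of 30, 36.7% (21.9 to 54.5), an interval that holds the 24.1% of the list, and in the 200-bp window in 7 of 30, 23.3% (11.8 to 40.9). The difference was not tested. Of the 30 blocked GBR 12 held an NF-kB match, against 23.2% of all blocked GBR. Of the 10 shared GBR 5 held one, against 26.6% of all shared GBR. The shorter kB element was present in 3 of the 40, at CXCL8, CCL2 and CSF1, 7.50% (2.58 to 19.9), against 2.05% of the list. Since the CXCL8 promoter prompted this search, its match is no independent part of that count. The CXCL8 promoter GBR held no match to the NF-kB pattern and is not among the 17. A match is a description of the letters in the window and does not show that a factor was bound.

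The other genes of the pathway were counted in the same way. Of 42 cytokine and chemokine receptor genes, 8 had a siNS/siNS GBR (19.0%, against 9.46% of protein-coding genes) and 16 a siHic5/siNS GBR (38.1%, against 27.1%), and of their 26 siHic5/siNS GBR 19 were blocked (73.1%, against 74.0% of the list). The strongest was called in all 6 lists and lay 7.84 kb upstream of LTBR, the lymphotoxin β receptor gene, and 34.2 kb upstream of TNFRSF1A, a receptor gene for TNF, with a −log10 p-value of 231 in siHic5/siNS. IL6R and IL6ST, which encode the interleukin 6 receptor and its signalling chain gp130, also had GBR in all 6 lists, at 131 and 74.9. The strongest GBR of LIFR, the gene of the LIF receptor, was called in siHic5/siNS only, at 14.1.

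Of 65 cytokine genes outside the 44, 8 had a siNS/siNS GBR (12.3%, against 9.46% of protein-coding genes) and 21 a siHic5/siNS GBR (32.3%, against 27.1%), and of their 35 siHic5/siNS GBR 26 were blocked (74.3%, against 74.0%). These shares lay near those of all genes and all GBR. Of the 35 GBR, 12 were also GBR of the 44 members, 34.3% of the 35 and 30% of the members' 40. Among them, OSM, the LIF neighbour that encodes oncostatin M, was 24.3 kb from the GBR that lies 44.4 kb upstream of LIF, and IL20 was 27.2 kb from the IL24 GBR, and the strongest GBR of CCL17, IL3 and IL19 were those named above for CX3CL1, CSF2 and IL10. CXCL13, a B cell chemokine gene, had a GBR of its own in all 6 lists, at 110 in siHic5/siNS. EBI3, which encodes a subunit of interleukins 27 and 35, had one 0.283 kb upstream of its TSS in 4 lists, at 67.2. IL13 and IL4 shared a blocked GBR, at 26.0.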

How the data were processed

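GR ChIP-seq of U2OS-GRα cells comprised 2 libraries and 1 input for each of 6 siRNA combinations, grouped by the sample labels. After trimming, the authors aligned the reads to GRCh38 (BWA), discarded duplicates and mitochondrial alignments, and used MACS2 with the IDR framework for peak calling. Versions and the IDR threshold are not given in the sources used here. The deposited lists, 1 per combination from pooled replicates, give each peak its position, summit, −log10 p-value and −log10 q-value. Their fold enrichment column was not used. Because peaks were pooled, the precision is that of counting.

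The 44 members and all lists of genes and motifs were chosen with earlier results of these data known. Summits were compared with canonical TSS of GENCODE 44, and peaks of different lists were matched when they overlapped by at least 1 bp. Every member was accounted for by name. Fully described were each member's siHic5/siNS GBR nearest the TSS, and loci called in all 6 lists or only outside siHic5/siNS. Other loci named in the text were chosen after their values were seen. Ranks were taken within a list. Motifs were searched as consensus sequences in 1-kb and 200-bp windows centred on the summit, and promoter sequences came from RefSeq. Most shares of the members' GBR were given Wilson intervals, and no test was run. Overlap and motif searches were tested on simulated data. Python 3.11.15, pandas 2.3.3 and SciPy 1.17.1 were used, with bedtools 2.31.1 in the simulated check only. Alternatives for assigning and matching GBR were a window of 25 or 100 kb, the TSS of any transcript, overlap of 50% and the summit inside the other peak. Further alternatives were a common q-value threshold, the 1000 strongest GBR, another motif window and a GRE without mismatch. Leaving out the LIF GBR was added after the data were seen.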

Additional observations from a re-analysis of the deposited data

How the results depend on the processing

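Of 118 values recomputed under an alternative, 87 stayed close to the reported value (shares within its interval) and 31 moved further. Counts called close could still differ, as with 55 siHic5/siNS member GBR within 100 kb against 40. With summits within 25 kb, member GBR fell to 7 in siNS/siNS, 22 in siHic5/siNS, 7 in siCHD9/siNS, 12 in siBRM/siHic5 and 3 in siBRM/siNS, and 3 loci were called in all 6 lists. With 100 kb, 12 members had a siNS/siNS GBR. With a common −log10 q-value threshold of 14.2, member GBR numbered 7 in siNS/siNS, 11 in siCHD9/siHic5 and 5 in siCHD9/siNS, 4 members had a siCHD9/siNS GBR, and 3 loci were in all 6 lists. Among the 1000 strongest GBR of each list, member GBR numbered 7 in siNS/siNS, 9 in siHic5/siNS, 6 in siCHD9/siHic5, 7 in siCHD9/siNS and 9 in siBRM/siHic5. Members with a GBR then numbered 7 in siHic5/siNS, 4 in siCHD9/siHic5, 4 in siCHD9/siNS and 5 in siBRM/siHic5. In that setting 4 of 9 siHic5/siNS member GBR were absent from siNS/siNS (44.4%) and 3 of 9 from siBRM/siHic5 (33.3%). The same shares over all of the 1000 strongest GBR were not computed, so these are not comparable with the full-list shares. Without the LIF GBR, chosen after the data were seen, member GBR numbered 6 in siNS/siNS, 8 in siCHD9/siNS and 13 in siBRM/siHic5, and 3 loci were in all 6 lists. With no mismatch, 17.5% of member GBR held a GRE, against 11.2% of the list, which turned the order of members and list. In the 200-bp window shares were 17.5% for AP-1, against 19.5%, and 10.0% for ETS, against 13.9%, and both orders turned, while NF-kB was in 17.5%, against 7.32%. Fewer GBR or narrower windows enter these settings by construction. No paired analysis was possible because the lists were made from pooled replicates, and for the same reason no replicate could be left out.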
